A study of Mus musculus with 6 samples.

Results

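Cholesterol synthesis was followed in single cells sorted from the hypothalamus by an Sf1-driven reporter. The 9 enzyme genes read were Hmgcs1, Mvd, Idi1, Fdps, Fdft1, Sqle, Cyp51, Msmo1 and Sc5d. The 9 genes were taken by name from the 21926 genes of the count tables, and each had at least 1 count in a kept well. There were 6 plates, 1 per mouse, from 3 females and 3 males at postnatal day 10. All mice, of both sexes, carried the genotype Ai14f/+;Sf1-Cre. In it, Cre recombinase under control of the Sf1 (Nr5a1) gene switches on a red fluorescent reporter. Sex was thus the only difference that the labels give between the groups, and no group lacked the alleles. Hypothalamus was dissected roughly, dissociated with papain and sorted by fluorescence, 1 cell was meant for each of the 96 wells of a plate, and libraries were made using the whole transcriptome kit BD Precise. The reporter also stays on in cells that expressed Sf1 only earlier, so a sorted cell need not hold Nr5a1 mRNA. The labels describe each sample as 1 mouse, and each mouse was also a plate of its own. In the comparison of sexes the p-values rest on the spread between these mice. In the comparisons of wells, where mouse is a block, they rest on the spread over mice of the difference within each mouse. In both, the test (edgeR) draws the variance of each gene toward that of all genes. The p-values are thus not a measure of 1 gene's own spread over mice. In the comparison by Gad1, with 3 mice, the variance came in effect from all genes. What belongs to the mouse and what to its plate cannot be told apart.

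Cholesterol is built from acetyl-CoA in a long chain of reactions, and its carrier lipoproteins do not cross the blood-brain barrier in useful amounts, so the brain makes its own. Neurons make sterol during development and later take much of it from astrocytes, which release it on apolipoprotein E. The enzyme genes of the pathway are known targets of the transcription factor SREBP-2, encoded by Srebf2, which is released from the endoplasmic reticulum when sterol is low and binds sterol regulatory elements in promoters, often beside sites of NF-Y and Sp1.

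Promoter sequences (RefSeq, GRCm38.p6, 300 bases around the annotated start, most of them before it) were found for 6 of the 9 genes, Hmgcs1, Mvd, Idi1, Cyp51, Msmo1 and Sc5d. Those of Fdps, Fdft1 and Sqle are not shown. The motifs were searched on both strands. TCACNCCAC, a core of the sterol regulatory element, was in 1 of the 6 promoters, that of Hmgcs1, and in 1.24% of all 32851 promoters of the same length. CCAAT, the box bound by NF-Y, was in 6 of 6 against 37.4% of all, and GGGCGG, the box bound by Sp1, was in 6 of 6 against 35.7%. A match is a description of letters, not of binding. The promoters of Hmgcs1, Cyp51 and Msmo1 are printed because Hmgcs1 with Msmo1 and Hmgcs1 with Cyp51 had the highest mean correlations across wells. That order did not hold when wells were thinned to 2000 counts. Capitals mark TCACNCCAC and CCAAT or its reverse complement ATTGG, and each sequence runs 5′ to 3′ on the strand of its gene, at chr13:119690101-119690400 (plus) for Hmgcs1, chr5:4104648-4104947 (minus) for Cyp51 and chr8:64733529-64733828 (minus) for Msmo1.
Hmgcs1: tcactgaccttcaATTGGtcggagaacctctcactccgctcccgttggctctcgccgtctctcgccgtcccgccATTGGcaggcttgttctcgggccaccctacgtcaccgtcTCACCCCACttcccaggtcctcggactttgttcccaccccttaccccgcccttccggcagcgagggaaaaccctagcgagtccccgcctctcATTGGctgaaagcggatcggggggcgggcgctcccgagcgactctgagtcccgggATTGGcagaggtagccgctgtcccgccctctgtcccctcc
Cyp51: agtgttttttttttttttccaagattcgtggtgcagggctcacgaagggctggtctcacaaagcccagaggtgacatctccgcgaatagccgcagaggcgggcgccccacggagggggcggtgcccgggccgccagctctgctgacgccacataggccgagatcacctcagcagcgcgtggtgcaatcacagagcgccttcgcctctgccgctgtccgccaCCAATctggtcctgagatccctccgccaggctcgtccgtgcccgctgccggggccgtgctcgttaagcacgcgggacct
Msmo1: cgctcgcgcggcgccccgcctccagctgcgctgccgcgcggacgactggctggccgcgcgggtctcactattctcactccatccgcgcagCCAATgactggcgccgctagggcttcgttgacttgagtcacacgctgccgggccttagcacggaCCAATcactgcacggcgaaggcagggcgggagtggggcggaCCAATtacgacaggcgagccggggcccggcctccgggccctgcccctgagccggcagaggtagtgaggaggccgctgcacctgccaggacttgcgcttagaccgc
The Hmgcs1 promoter held the sterol regulatory element core from position 114 of its 300 bases and 4 NF-Y boxes, at 14, 75, 206 and 261. Msmo1 held 3 NF-Y boxes, at 91, 155 and 196, and Cyp51 held 1, at 222.

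Of 576 wells, 530 had at least 500 genes with a count and a mitochondrial share of counts under 25%, and were kept. The 84 to 93 kept wells of a mouse summed to between 185654 counts in female 2 and 783270 in male 1. Female 2 was the shallowest plate, with a median of 2097 counts per kept well against 5170 to 7979.5 in the other mice. At least 1 of 10 neuron markers was counted in 520 of 530 kept wells (98.1%), and at least 1 of 5 markers of the ventromedial nucleus in 404 (76.2%). By the same rule of at least 1 marker, 467 wells (88.1%) held a count of 9 oligodendrocyte-lineage markers, 419 (79.1%) of 10 astrocyte markers, 114 (21.5%) of 6 ependymal and tanycyte markers, 20 of 8 microglial and 18 of 6 endothelial markers. At least 3 markers of a list were counted in 514 wells for neurons, 115 for the ventromedial nucleus, 16 for oligodendrocyte lineage and 15 for astrocytes. Of the microglial markers 3 of 8 had a count and Cx3cr1, C1qa, C1qb, C1qc and Tmem119 were at 0, and of the endothelial ones 4 of 6 had a count and Cdh5 and Ly6c1 were at 0. The summed level of 10 astrocyte markers was 1033.4 CPM (counts per 1000000 counts of all genes) in female 1 against 445 to 583 CPM in the other 5 mice. In 13 kept wells, 10 of them of female 1, markers of other cell types together exceeded the neuron markers. In summed wells, fewer cells of a type and less RNA per cell cannot be told apart. All plates share the same 96 well names, which are plate positions and not cell barcodes, and no 2 kept wells held identical counts.

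The 9 genes together made up 476, 512 and 949.7 CPM in females 1, 2 and 3 and 931, 906 and 716 CPM in males 1, 2 and 3, as a share of all counts over the kept wells of a mouse. Females 1 and 2 were the lowest of the 6 mice and female 3 the highest, so the sexes overlapped. The mean was 646 ± 264 CPM over the females and 851 ± 117 over the males (SD, n = 3 each). At least 1 of the 9 genes was counted in 53 of the 87 wells of female 2 and in 75 to 87 wells of each other mouse. With every well thinned to 2000 counts, which left 76, 48 and 86 wells of the females and 91, 83 and 91 of the males, a well held on average 0.816 and 0.938 of the 9 genes in females 1 and 2 and 1.29 to 1.59 in the other mice. The low standing of females 1 and 2 was thus also seen at 1 fixed depth.

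Hmgcs1 encodes the cytosolic synthase that makes HMG-CoA from acetyl-CoA units, early in the pathway. Its level was 99.7 CPM in female 1, 70.0 in female 2 and 286 in female 3, and 230, 189 and 235 CPM in males 1, 2 and 3. Females 1 and 2 lay below all other mice and female 3 above all, and the exact 95% Poisson intervals of female 1 (72.5 to 134) and female 3 (244 to 332 CPM) did not overlap. Such intervals cover counting error only, and the counts may be of reads and not of molecules. Of its 689 counts, between 3.89% and 15.4% of those of a mouse were in its richest well, so no plate's level rested on 1 well. The share of wells with a count was 40.9%, 13.8% and 80.2% in females 1 to 3, and 64.5%, 46.4% and 75.0% in males 1 to 3. At 2000 counts per well it was 15.8%, 10.4% and 38.4%, then 29.7%, 28.9% and 35.2%, with females 1 and 2 again lowest. Enzymes of this pathway are made in most cell types, so no cells of these plates gave a background share for wells that lack the gene.

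Mvd encodes the decarboxylase that ends the mevalonate steps by making isopentenyl diphosphate. It stood at 29.5, 75.4 and 42.2 CPM in females 1, 2 and 3 and at 49.8, 44.8 and 34.9 CPM in males 1, 2 and 3. Female 2 was highest and female 1 lowest, the males lay between them, and the interval of female 2, from 14 counts, ran from 41.2 to 127 CPM. Idi1, the isomerase that makes dimethylallyl diphosphate from isopentenyl diphosphate, had 2 counts in all, 1 in female 3 and 1 in male 1. Its 0 counts in the other 4 mice allow up to 3.87 CPM in male 3 and, at the lower depth of female 2, up to 16.2 CPM (3 counts).

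Fdps encodes farnesyl diphosphate synthase, whose product feeds sterols and also the farnesyl groups of proteins. Its level was 29.5, 86.2 and 98.0 CPM in females 1, 2 and 3, and 79.2, 1.87 and 3.87 CPM in males 1, 2 and 3. Males 2 and 3 held 1 and 3 counts of Fdps, against 62 in male 1, and their intervals (up to 10.4 and 11.3 CPM) lay below those of all other mice. Both of these plates were deeper than that of female 2, which had 16 counts.

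Fdft1 encodes squalene synthase, which commits farnesyl diphosphate to sterols. It stood at 4.53 CPM in female 1, 118.5 in female 2 and 152 in female 3, and at 175, 198 and 32.3 CPM in males 1, 2 and 3. The 2 low plates were female 1 and male 3, neither of them the shallowest, with 2 and 25 counts against 106 in male 2 and 137 in male 1. Male 3, which was low in both Fdps and Fdft1, was not low in Sqle or Hmgcs1.

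Sqle encodes squalene epoxidase, the oxygen-using step before the ring is closed. Its level was 141, 91.6 and 198 CPM in females 1, 2 and 3 and 130.2, 185 and 186 CPM in males 1, 2 and 3. The highest mouse had 2.16 times the CPM of the lowest, and the sexes overlapped. Sqle was counted in 283 of the 530 wells, nearly as many as Hmgcs1 with 285.

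Cyp51, the cytochrome P450 that removes a methyl group from lanosterol, varied least of the 9 genes. It stood at 47.6, 53.9 and 87.9 CPM in females 1, 2 and 3 and at 83.0, 89.6 and 63.3 CPM in males 1, 2 and 3. Females 1 and 2 were lowest and the highest mouse had 1.88 times the CPM of the lowest.

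Msmo1 encodes a methylsterol monooxygenase, which acts later in the pathway on other methyl groups. Its level was 104, 10.8 and 23.7 CPM in females 1, 2 and 3 and 153, 166 and 121 CPM in males 1, 2 and 3. All 3 males lay above all 3 females, and females 2 and 3 lay far below female 1, with 2 and 14 counts against 46. Thinned to 2000 counts per well, Msmo1 stood at 98.7, 0 and 34.9 CPM in females 1 to 3, with 137, 145 and 132 CPM in males 1 to 3, in the same order of sexes.

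Sc5d encodes a late desaturase of the sterol ring. It stood at 20.4, 5.39 and 60.8 CPM in females 1, 2 and 3 and at 29.4, 31.7 and 40.0 CPM in males 1, 2 and 3. Female 2, with 1 count, was lowest and female 3 highest, as female 3 also was for Hmgcs1, Fdps and Sqle.

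**Figure D1:**
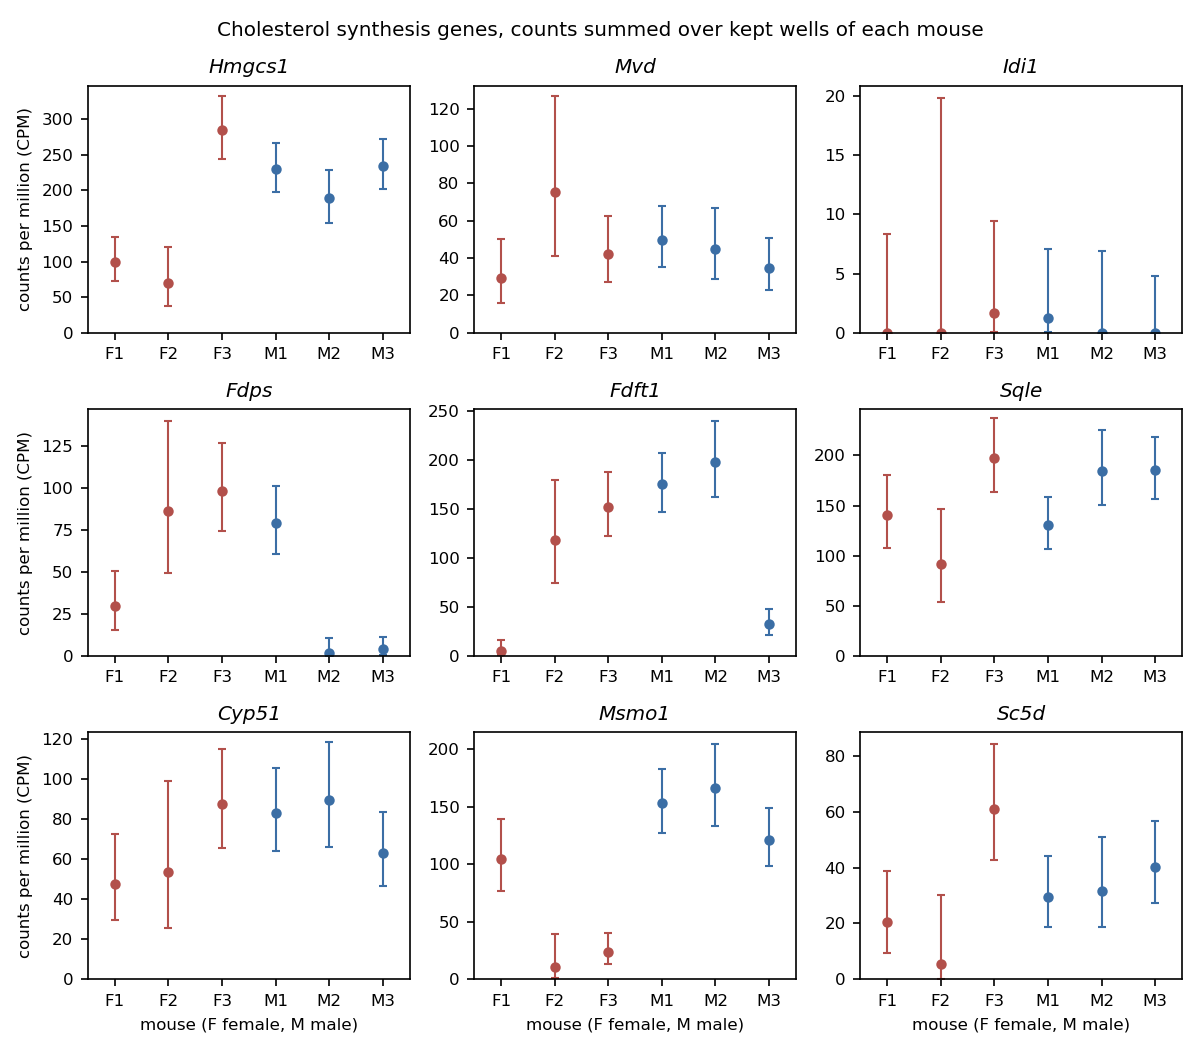
Levels of the 9 genes in CPM (vertical axes, each from 0 on its own scale) in the 6 mice (horizontal axis, F female, M male), as sums over kept wells with exact 95% Poisson intervals of the counts. Fdps is near 0 in males 2 and 3, Fdft1 in female 1, and Msmo1 is higher in all 3 males than in any female.

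The spread between plates was uneven within the pathway. Over the 6 mice the coefficient of variation was 86.8% for Fdps, 69.3% for Fdft1, 67.8% for Msmo1 and 59.7% for Sc5d. Among the 6224 genes with a mean of at least 20 CPM the median was 30.2%, and 1.27%, 3.50%, 3.78% and 6.64% of those genes had a larger coefficient than Fdps, Fdft1, Msmo1 and Sc5d. Sqle (26.6%) and Cyp51 (25.8%) lay below that median, Mvd at 34.9% and Hmgcs1 at 45.4% above it. The low plates were not the same ones for the 3 genes that varied most, being males 2 and 3 for Fdps, female 1 and male 3 for Fdft1, and females 2 and 3 for Msmo1. Among their neighbours in the genome (GENCODE, GRCm38), Fdft1 on chromosome 14 (63145150 to 63179578) overlaps Ctsb on the opposite strand by 774 bases, and Cyp51 on chromosome 5 (4081145 to 4104746) overlaps Akap9 by 166. Fdps on chromosome 3 (89093588 to 89101959) shares 7512 bases of 1 strand with Gm43738, which had 0 counts in every mouse. The strand of counting was not stated, so reads from overlapping genes cannot be told apart, and the part of annotation in these spreads was not tested. Sqle, Msmo1 and Sc5d overlap no other annotated gene.

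Whether males and females differed in the pathway was asked with counts summed over the wells of each mouse. Of the 8 genes with enough counts for the test (all but Idi1), 0 passed at an adjusted p of 0.05 in edgeR's quasi-likelihood test with Benjamini-Hochberg adjustment over 6794 genes, of which 0% were called. DESeq2 also called 0 of the 8. At an unadjusted p under 0.05 there was 1 of 8, Msmo1, beside 167 of all 6794 genes (2.46%). The 8 genes had a median log2 fold change, male over female, of 0.25, and all genes one of -0.03.

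Msmo1 averaged 46.2 ± 50.7 CPM over the females and 147 ± 23.1 over the males (SD, n = 3 each). Its log2 fold change was 1.59 (SE 0.561, 95% interval 0.34 to 2.84), with an edgeR adjusted p of 0.999. It was the only one of the 8 genes whose sexes did not overlap, which was so for 8.48% of all genes tested, and for 3.96% with the males higher. With 1 mouse left out the log2 fold change of Msmo1 ran from 1.20 without female 3 (edgeR adjusted p = 0.999) and 1.28 without female 2 to 2.93 without female 1 (edgeR adjusted p = 0.122). Female 1 is the plate with most astrocyte marker counts, and in wells with more neuron than other marker counts the log2 fold change was 1.81 (edgeR adjusted p = 0.999).

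For the other 7 genes the intervals of the difference included 0 and were wide. Fdps had a log2 fold change of -1.22 (95% interval -3.32 to 0.88), with 71.2 ± 36.6 CPM in females and 28.3 ± 44.1 CPM in males. With 1 mouse left out it was -0.68 without male 3, -0.69 without male 2, -0.81 without female 3, and -4.42 without male 1 (edgeR adjusted p = 0.355), the only male with more than 3 counts of Fdps. Fdft1 had 0.58 (-1.30 to 2.47) and Hmgcs1 had 0.48 (-0.47 to 1.44), with 152 ± 117 CPM of Hmgcs1 in females and 218 ± 25.4 CPM in males. Hmgcs1 moved to 0.20 without female 2, 0.24 without female 1 and 1.34 without female 3. The log2 fold change was 0.30 for Cyp51 (-0.44 to 1.03), 0.20 for Sqle (-0.48 to 0.88), 0.03 for Sc5d (-1.18 to 1.25) and -0.06 for Mvd (-0.94 to 0.81). With 1 mouse left out Cyp51 ran from 0.11 without female 1 to 0.66 without female 3, and Sqle from 0.01 without female 2 to 0.51 without female 3. These intervals thus held a doubling in either direction for Fdft1 and Sc5d, a doubling in females for Fdps, and a doubling in males for Hmgcs1 and Cyp51.

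The wells were next divided by whether they held a count of a neuron marker, and counts were summed per mouse in each class. A well without a count of a marker may still express it, and the markers overlap, with 91 wells holding both Nr5a1 and Pdyn and 80 both Tac1 and Pdyn. Mouse was kept as a block, since both classes come from the same plates. In none of the 5 marker comparisons did any of the 9 genes pass the adjusted p of 0.05 in edgeR or in DESeq2.

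Nr5a1, which encodes steroidogenic factor 1 and marks the ventromedial nucleus, was counted in 156 wells. Of 7 pathway genes tested, 0 were called, beside 1.27% of 4001 other genes, and 1 had an unadjusted edgeR p under 0.05, beside 11.1% of those genes. Msmo1 in wells with and without Nr5a1 stood at 76.3 and 136 CPM in female 1, 0 and 12.3 in female 2, 10.7 and 29.6 in female 3, 115 and 170 in male 1, 146 and 179 in male 2, and 119 and 123 CPM in male 3. The wells with Nr5a1 were lower in 6 of 6 mice, as for 3.05% of all genes, although in females 2 and 3 they held 0 and 2 counts of Msmo1. Its log2 fold change was -0.43 (SE 0.171, 95% interval -0.77 to -0.09, edgeR adjusted p = 0.272). In wells with more neuron than other marker counts it was -0.33 (edgeR adjusted p = 0.481). Cyp51 was also lower in 6 of 6 mice, with 59.7 ± 14.9 against 75.9 ± 21.2 CPM (SD, n = 6) and a log2 fold change of -0.35 (-0.77 to 0.07, edgeR adjusted p = 0.575). Wells with Nr5a1 had the higher median depth in 6 of 6 mice, for example 10317 against 7490.5 counts in male 1. At 2000 counts per well neither Msmo1 nor Cyp51 had enough counts for the fit, so the part of depth was not tested.

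Tac1, which encodes the precursor of substance P, was counted in 193 wells. None of 7 pathway genes was called (0 in edgeR, beside 0.911% of 4392 other genes), and 2 had an unadjusted edgeR p under 0.05, beside 8.47% of those genes. Cyp51 in wells with and without Tac1 stood at 42.5 and 52.3 CPM in female 1, 20.7 and 65.5 in female 2, 83.2 and 93.6 in female 3, 69.6 and 92.7 in male 1, 76.2 and 99.3 in male 2, and 27.6 and 84.6 CPM in male 3. The wells with Tac1 were lower in 6 of 6 mice, as for 2.35% of all genes, and the gap was widest in female 2, from 1 count, and in male 3, from 8. The log2 fold change of Cyp51 was -0.55 (SE 0.205, 95% interval -0.96 to -0.14, edgeR adjusted p = 0.297). Hmgcs1 was lower in 4 of 6 mice, all 3 males and female 1, with a log2 fold change of -0.28 (-0.54 to -0.02, edgeR adjusted p = 0.504). All 7 pathway genes tested had a negative log2 fold change, with a median of -0.27 where all genes had -0.00. By mouse the direction was mixed: Cyp51 was lower in 6, Msmo1 in 5, Hmgcs1, Mvd, Fdps and Sqle in 4 and Fdft1 in 3 mice. Whether these genes moved as a set was not tested. Wells with Tac1 were deeper in 6 of 6 mice, and at 2000 counts per well the log2 fold change of Hmgcs1 was -0.26 (edgeR adjusted p = 0.915).

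Pdyn, which encodes the precursor of the dynorphins, was counted in 224 wells. In edgeR 0 of 7 pathway genes were called, beside 1.81% of 4199 other genes, and 2 had an unadjusted p under 0.05, beside 11% of those genes. Fdft1 stood at 100.1 ± 73.4 CPM with Pdyn and 125 ± 85.7 CPM without it (SD, n = 6), lower in 4 of 6 mice, with a log2 fold change of -0.36 (-0.69 to -0.03, edgeR adjusted p = 0.384). Hmgcs1 had a log2 fold change of -0.23 (-0.46 to -0.00, edgeR adjusted p = 0.445) and one of 0.01 at 2000 counts per well. Wells with Pdyn were deeper in 6 of 6 mice. Msmo1, lower with Nr5a1 in every mouse, was higher with Pdyn in 4 of 6, with a log2 fold change of 0.11 (-0.22 to 0.44), and the difference between these comparisons was not tested.

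Sst, the somatostatin gene, was counted in 103 wells. None of 5 pathway genes was called (0 in edgeR, beside 0.22% of 3181 other genes), and 0 had an unadjusted p under 0.05, beside 5.6% of those genes. Fdft1 with and without Sst stood at 0 and 5.61 CPM in female 1, 191 and 104 in female 2, 208 and 139 in female 3, 193 and 169 in male 1, 216 and 193 in male 2, and 37.8 and 30.8 CPM in male 3. It was higher with Sst in the 5 mice other than female 1, where only 2 counts were found in all. Its log2 fold change was 0.33 (-0.04 to 0.70, edgeR adjusted p = 0.933), and that of Msmo1 was 0.13 (-0.26 to 0.52, edgeR adjusted p = 0.991).

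Gad1, which encodes a GABA-synthesizing enzyme and marks inhibitory neurons, was counted in only 35 wells. The comparison used the 3 mice with at least 5 such wells, female 3 with 11, male 1 with 9 and male 3 with 5, so it rests on 25 wells. Of 8 pathway genes tested, 0 were called in edgeR, beside 0.915% of 4588 other genes, and 1 had an unadjusted p under 0.05, beside 8.04% of those genes. Fdft1 with and without Gad1 stood at 244 and 136 CPM in female 3, 242 and 169 in male 1, and 48.8 and 31.3 CPM in male 3, from 22, 15 and 2 counts with Gad1. It was higher in 3 of 3 mice, as for 11.4% of all genes, with a log2 fold change of 0.71 (SE 0.313, 95% interval 0.10 to 1.32, edgeR adjusted p = 0.467). Hmgcs1 had a log2 fold change of 0.44 (-0.00 to 0.89, edgeR adjusted p = 0.632) and was higher with Gad1 in female 3 and male 1 but not in male 3. Cyp51 was higher and Sqle lower in 3 of 3 mice, and 17.3% of all genes were lower in every mouse. Their log2 fold changes were 0.74 (SE 0.387, edgeR adjusted p = 0.651) and -0.28 (SE 0.318, edgeR adjusted p = 0.952). At 2000 counts per well only female 3 and male 1 had at least 5 wells with Gad1. The log2 fold changes there were 0.44 for Fdft1 and 0.60 for Hmgcs1, with an edgeR adjusted p of 0.996 for each.

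**Figure D2:**
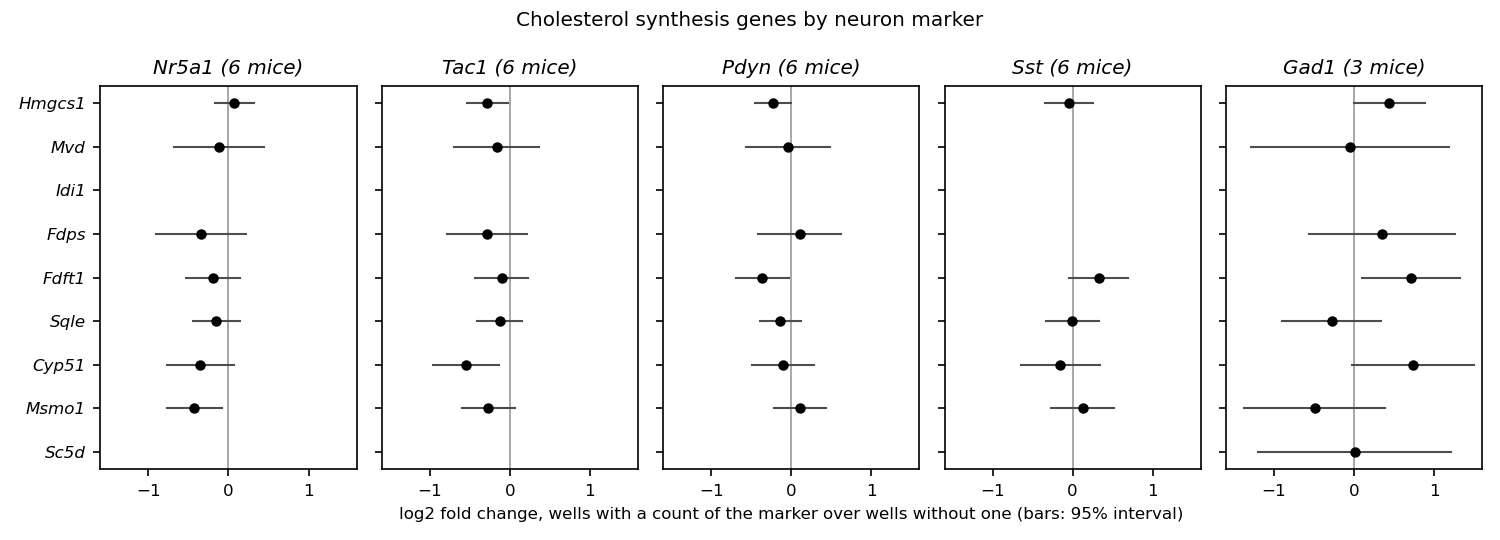
Log2 fold change of each pathway gene (rows) between wells with a count of the marker named above each panel and wells without one, with 95% intervals from edgeR, a line at 0 and no point for genes with too few counts to test. Among intervals that leave out 0, Cyp51 by Tac1 (-0.55) lies farthest below it and Fdft1 by Gad1 (0.71) farthest above, and none passed adjustment.

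Co-variation within the pathway was measured as the Pearson correlation of log2(counts per 10000 + 1) between wells of 1 mouse, averaged over mice. These wells share a library and differ in depth, and the values are given as a description. The median over the 36 pairs of the 9 genes was 0.0698 (SD of the median over mice 0.0593), with 29 of 36 pairs above 0. Over all 38067175 pairs of the 8726 genes counted in at least 5% of wells the median was 0.00595 with 55.1% above 0, and 9.93% of those pairs exceeded the median of the pathway. Without Idi1, which has 2 counts, 27 of 28 pairs were above 0 (median 0.0759). By mouse the median was -0.0341 in female 2 and 0.0164 in female 1, against 0.0806 to 0.121 in the other 4 mice. At 2000 counts per well the median of the 28 pairs was 0.0232, with 18 above 0, and with depth removed linearly it was 0.0668. Neither of these medians has a value over all pairs of genes, treated the same way, beside it.

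The 2 highest pairs both held Hmgcs1. Hmgcs1 with Msmo1 had a mean r of 0.216, with 0.310 in female 1, -0.0595 in female 2, -0.0567 in female 3, and 0.332, 0.351 and 0.420 in males 1, 2 and 3. Females 2 and 3, where r was below 0, are the mice with 2 and 14 counts of Msmo1. In female 1, 10 kept wells had more counts of other cell types' markers than of neuron markers. They held 10 of its 46 counts of Msmo1 and 6 of its 44 counts of Hmgcs1. Their part in the r of this pair was not tested. Hmgcs1 with Cyp51 had a mean r of 0.213 and was above 0 in 6 of 6 mice, from 0.146 in female 3 to 0.314 in male 3. Fdft1 with Sqle, the consecutive enzymes that make and oxidize squalene, followed at 0.186, positive in 5 of 6 mice, then Mvd with Fdft1 at 0.166 and Sqle with Msmo1 at 0.163. At 2000 counts per well r was 0.112 for Hmgcs1 with Msmo1, 0.0468 for Hmgcs1 with Cyp51, 0.0975 for Fdft1 with Sqle and 0.000374 for Sqle with Msmo1. The highest of the 28 pairs without Idi1 was then Fdps with Sqle at 0.130, which had 0.0964 with all counts. The order of the pairs was thus not the same at fixed depth. Such r are weak, and in counts this sparse they do not set a pair apart by themselves.

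**Figure D3:**
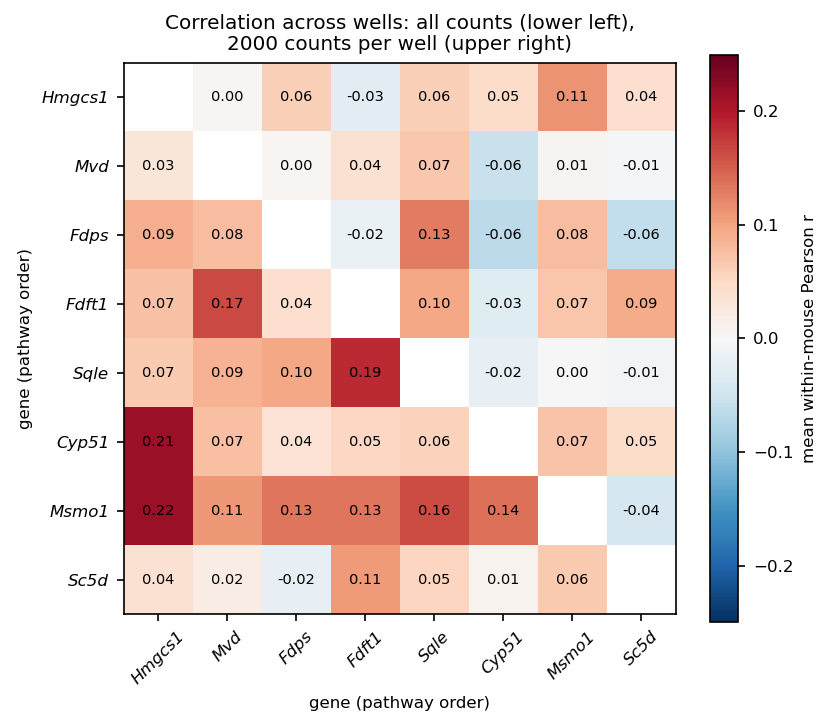
Mean within-mouse Pearson r between pathway genes across wells (colour and printed value, genes in pathway order on both axes, Idi1 left out), from all counts in the lower left and from 2000 counts per well in the upper right. Hmgcs1 with Msmo1 (0.22) and with Cyp51 (0.21) are highest in the lower left, and 25 of 28 pairs have a smaller value in the upper right.

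Whether the other genes were higher where Hmgcs1 was counted was then tested within mice, with mouse as a block. Counts were summed per mouse over the 285 wells with Hmgcs1 and over the 245 without it. Of 6 other pathway genes tested, 1, Msmo1, was called in edgeR, beside 0.0543% of 3680 other genes, which is 2 genes, Msmo1 and Calb1 (calbindin, named after its value was seen). At an unadjusted edgeR p under 0.05 there were 2 of 6, Msmo1 and Cyp51, beside 8.72% of the other genes. Msmo1 in wells with and without Hmgcs1 stood at 132 and 83.5 CPM in female 1, 0 and 12.7 in female 2, 22.6 and 28.8 in female 3, 170 and 102 in male 1, 231 and 89.7 in male 2, and 139 and 37.3 CPM in male 3. It was higher in female 1 and all 3 males and lower in females 2 and 3, where the 2 classes held 2 and 14 counts in all. The log2 fold change was 0.99 (SE 0.213, 95% interval 0.56 to 1.42, edgeR adjusted p = 0.0388). The call was lost with DESeq2 (0.96, adjusted p = 1.00), without mouse as a block (1.02, adjusted p = 1.00) and when female 1 (edgeR adjusted p = 0.0928), male 1 (0.133), male 2 (0.378) or male 3 (0.200) was left out, with log2 fold changes of 0.84 to 1.10. Msmo1 was still called with RLE scaling, with no gene filter, and when female 2 or female 3 was left out. It was also called with Hmgcs1 detected at 2 counts or more and in wells with more neuron than other marker counts. The call stayed, too, in wells with at least 1000 genes or under 10% mitochondrial counts. At 2000 counts per well Msmo1 had too few counts for the fit. Wells with Hmgcs1 were deeper in 5 of 6 mice, for example 9489 against 5276 median counts in male 1, so the part of depth was not tested.

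Cyp51 was higher with Hmgcs1 in the 5 mice other than female 1, at 89.8 ± 36.8 against 51.1 ± 13.8 CPM (SD, n = 6). Its log2 fold change was 0.62 (SE 0.254, 95% interval 0.11 to 1.13, edgeR adjusted p = 0.438). By mouse it stood at 31.6 and 59.6 CPM with and without Hmgcs1 in female 1, 141 and 38.2 in female 2, 94.3 and 57.6 in female 3, 92.0 and 56.0 in male 1, 110.3 and 65.2 in male 2, and 70.2 and 29.8 CPM in male 3. Fdft1 (0.29, 95% interval -0.09 to 0.67), Sqle (0.27, -0.06 to 0.61), Fdps (0.07, -0.55 to 0.68) and Mvd (-0.10, -0.69 to 0.48) had log2 fold changes whose intervals included 0. The 6 genes had a median log2 fold change of 0.28, and all genes one of -0.01.

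**Figure D4:**
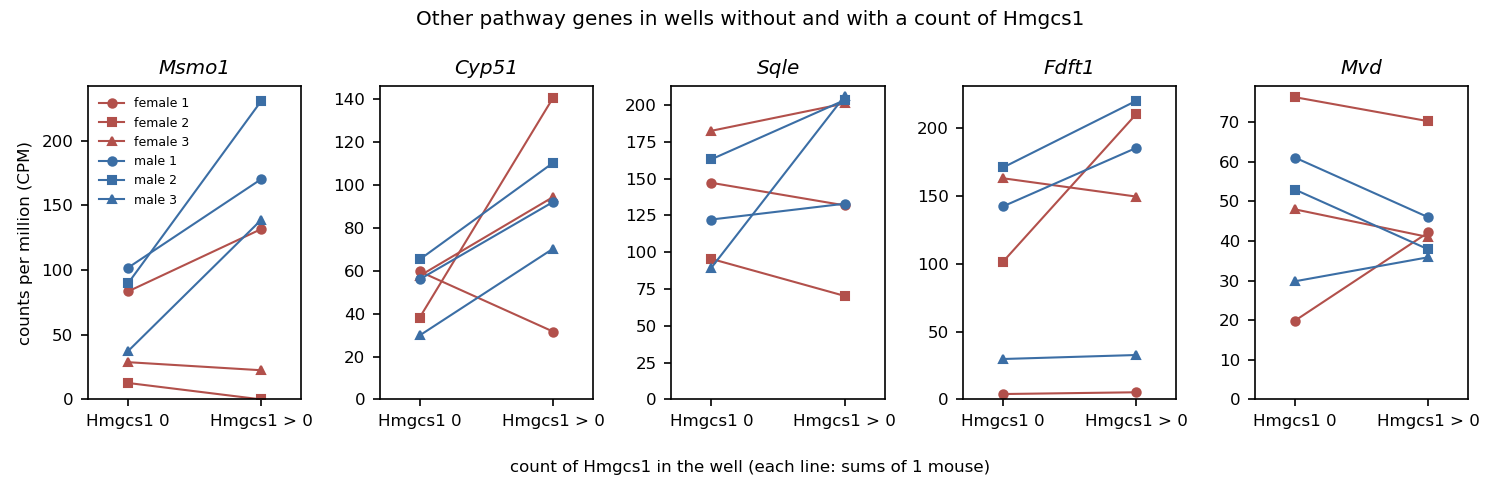
Levels in CPM (vertical axes, each from 0 on its own scale) of Msmo1, Cyp51, Sqle, Fdft1 and Mvd in wells without and with a count of Hmgcs1 (horizontal axis), 1 line per mouse, females red and males blue. Lines for Msmo1 go up in female 1 and all 3 males, and lines for Cyp51 go up in the 5 mice other than female 1.

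The rest of the sterol pathway and its neighbours were read from 5 further lists. Of 12 other enzymes of cholesterol synthesis 9 were tested for sex and 0 passed, as did 0 of 6 tested genes of sterol sensing and uptake, 0 of 4 of sterol export and conversion, 0 of 9 of the isoprenoid branches and 0 of 9 of fatty acid synthesis, all in edgeR. Of these, Apoe had an unadjusted p under 0.05. None of the genes of these lists passed in the 5 marker comparisons or in that by Hmgcs1. In CPM over the 6 mice (mean ± SD), Pmvk, the kinase before Mvd, stood at 137 ± 18.2 and Acat2, which makes acetoacetyl-CoA, at 133 ± 37.5. Of the sensing and uptake genes, Insig2, which retains the SREBP complex in the endoplasmic reticulum, stood at 62.0 ± 17.4 and Npc2, a lysosomal sterol carrier, at 59.6 ± 14.8. Cyp46a1, the neuronal enzyme that turns cholesterol into a form that leaves the brain, stood at 124 ± 61.9, from 32.3 CPM in female 2 to 227 in female 1. Apoe stood at 997 CPM in female 1 and at 9.04 to 194 CPM in the other mice. Of its 636 counts, 502 were in the 13 wells where markers of other cell types exceeded neuron markers. The subunits Fnta and Rabggtb of protein prenyltransferases stood at 163 ± 25.7 and 164 ± 31.4, and Scd2 and Acly of fatty acid synthesis at 127 ± 35.6 and 77.0 ± 16.1.

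Among 4151 genes outside these lists counted in at least 20% of wells, the 5 whose levels were most like the summed counts of the 9 genes, by mean within-mouse r over the 6 mice, were Fabp5 (0.240), Idh1 (0.224), Actb (0.207), Tubb2b (0.205) and Lamp1 (0.204). Each was above 0 in 6 of 6 mice, which the choice by highest mean r over the same mice favours. The median of the genes ranked was 0.00410. Fabp5 encodes a fatty acid carrier, Idh1 the cytosolic isocitrate dehydrogenase that makes NADPH, Actb and Tubb2b cytoskeletal proteins and Lamp1 a lysosomal membrane protein. With depth removed linearly r was 0.165 to 0.199 for these 5 genes. Of the genes in the lists, Nsdhl, which works with Msmo1 on the methyl groups of the ring, had 0.203, Acat2 0.156 and Insig1, a sterol-dependent SREBP regulator, 0.154.

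The 13 wells with more counts of other cell types' markers than of neuron markers were shallow, with a median of 904 counts, and held 31 counts of the 9 genes. Msmo1 stood at 966 CPM in them, from 12 counts in 5 wells, against 107 CPM in the other 517 wells. Hmgcs1 stood at 563 CPM from 7 counts against 207, Sqle at 402 from 5 against 162, and Cyp51 at 241 from 3 against 73.3. Mvd, Fdps, Fdft1 and Sc5d had 1 count each in these wells and Idi1 had 0. Of the 13 wells, 10 are of female 1. Within that plate Msmo1 stood at 1054 CPM in those 10 wells (10 counts, exact 95% Poisson interval 506 to 1939) and at 83.4 CPM in the other 78 (36 counts, 58.4 to 115). Hmgcs1 stood at 633 CPM (6 counts, 232 to 1377) against 88.0 (38 counts, 62.3 to 121). The intervals of both genes were apart within the plate. Those of Sqle overlapped, at 316 CPM (3 counts, 65.2 to 924) against 137 (59 counts, 104 to 176), as did those of Cyp51, at 316 CPM (3 counts, 65.2 to 924) against 41.7 (18 counts, 24.7 to 65.9). These are wells of 1 mouse and the intervals cover counting error only, so no test was made. The share of all genes whose intervals were apart was not computed, so the gap does not set these genes apart from others.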

How the data were processed

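Single sorted cells of 6 mice, 3 per sex, were measured on 1 plate of 96 wells per mouse. The deposited values are raw counts for each gene in each well, with no normalisation. HTSeq and the mm10 build are named in the submitters' processing notes. The aligner, the versions, the counting strand and the use of molecular indexes were not given in the sources used here. Wells with at least 500 genes with a count and under 25% mitochondrial counts were kept (530 of 576, 185654 to 783270 counts per mouse). No doublet caller was run. Counts were summed per mouse, or per mouse and class of wells, since wells are not replicates. They were tested with edgeR 4.0.16 (TMM, filterByExpr, quasi-likelihood test, Benjamini-Hochberg over all genes tested, threshold 0.05) in R 4.3.3. Mouse was a block within the comparisons of wells, and mice with under 5 wells in a class were left out. The fits were tested on simulated data. DESeq2 1.42.0, RLE scaling, other filters on wells and genes, 2000 counts per well, and leaving out each mouse were alternatives. The members and lists were chosen with earlier results of these data known. Fold changes are given for all tested members by sex and, by marker, for called members and the 2 with the smallest p, with Cyp51, Msmo1 and Sqle added in places after their values were seen. Of the other lists, called genes or the 2 with the highest mean CPM are named, with Nsdhl and Insig1 added after their values were seen. Correlations used log2(counts per 10000 + 1). Tables were handled in Python 3.11.15.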

Additional observations from a re-analysis of the deposited data

Results flagged for a closer look

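In 3 of 64 groups of mice that were checked, 1 mouse stood apart from the other 5 by the gap to its nearest neighbour relative to the whole range, and chance alone would do so in about 1 of 20 groups. All 3 were Mvd in female 2, the shallowest plate. Mvd stood at 129 CPM in its wells with Nr5a1, from 3 counts, where the next mouse had 56.6 CPM. In its wells with Tac1 it stood at 124 CPM, from 6 counts, where the next mouse had 48.4. In its wells with Hmgcs1 it stood at 70.3 CPM, from 2 counts, where the next mouse had 46.0.

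The wells left out for few genes held counts of the pathway, which no comparison used. The 46 wells had 18 counts of the 9 genes among 4640 counts, of which 5 were of Cyp51 and 6 of Msmo1. All but 1 of the 18 were in the 8 left-out wells of female 1, which had 3595 of the 4640 counts, 78 counts of astrocyte markers, 6 of neuron markers and 161 of Apoe.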

How the results depend on the processing

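With Hmgcs1-detected against undetected wells, 1 pathway gene was called, and 0 were under DESeq2, with no replicate block, and at 2000 counts per well, where 1 gene could be tested; without 1 mouse the count was 0 to 1. By sex, the replicate block, for numbers that do not pair the mice (r of same-numbered deviations -0.137, -0.0768 and 0.158), called 0 of 8 genes and gave Msmo1 1.91. The co-variation median over 36 pairs was 0.00198 at 2000 counts per well. By sex, Mvd turned to 0.0446 with no gene filter, and without 1 mouse it was -0.33 to 0.28, above 0 without female 2 or male 3 (0.09). Without 1 mouse Fdft1 was -0.00562 (female 1) to 1.40 (female 3), and Sc5d -0.27 to 1.17, below 0 without female 1 (-0.22), female 2 or male 3 (-0.09). Hmgcs1 by Pdyn turned to 0.00584 at 2000 counts, and Msmo1 by Sst was -0.0391 (without male 2) to 0.25 without 1 mouse. Causes were not tested. The other 105 of 113 summary values and 260 values of single genes kept their direction and side of the threshold or stayed within the spread.

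Counts of all genes called, the marker included, moved more. For Nr5a1 the count was 52, and 8 with DESeq2, 3 at 2000 counts and 1 with no replicate block, and 25 to 47 without 1 mouse. For Tac1 it was 41, and 7, 9 and 1, with 21 to 50 without 1 mouse and 75 with no gene filter. For Pdyn it was 77, and 28, 6 and 2, and 42 to 85 without 1 mouse. For Sst it was 8, and 2, 5 and 2, with 19 with no gene filter and 12 at a minimum of 2 marker counts. For Gad1 it was 43, and 4, 5 and 2, with 24 at 2 marker counts and 8 to 42 without 1 mouse. For Hmgcs1 it was 3, and 1, 1 and 1, with 15 with no gene filter and 5 under RLE scaling or at 2 counts, and 1 to 4 without 1 mouse. By sex it was 0, with 4 under DESeq2, 20 with no gene filter, and 3, 1 and 1 without female 1, female 2 and male 3. Idi1, with 2 counts, was left out of the reported fits, and the part of depth in its low count was not tested. Female 2 was the shallowest plate, with 185654 counts over its kept wells, which limits what can be read from it.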
